A study of Homo sapiens with 18 samples.

Results

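Genes described as lowered by androgen, or lowered by it in these libraries, were followed through knockdown of 2 histone demethylases. The cells were a pair of related prostate cancer lines. The group held 8 genes: OPRK1, AKR1C3, HSD17B6, CAMK2N1, BCHE, CD200, PCDH19 and DDC. They were picked from 60675 listed genes because androgen is known to lower them or because the synthetic androgen R1881 lowered them in these libraries. The question was whether each gene, with R1881 present, stood higher in cells treated with siRNA against KDM1A and KDM7A. Because R1881 values of these libraries helped to choose the genes, their responses to R1881 are given as a description, without a test. Of the 8 genes, 6 had enough counts to be tested in each line and 7 in the fit of all libraries.

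RNA Seq was performed on 18 libraries, 9 from LNCaP, an androgen-dependent prostate cancer line, and 9 from C4-2, a castration-resistant line derived from LNCaP. Each line had 3 groups of 3 libraries. Cells of the first group received a nontargeting siRNA (siScr) and vehicle, and the second siScr and R1881 (1 nM for 72 h). The third received siRNA pools against KDM1A and KDM7A together (dual knockdown) and the same R1881 treatment. The siRNA mix was used at 10 nM, and whether this held for each pool of the dual knockdown is not stated. All cells were grown in medium depleted of hormone, so the vehicle groups had little androgen. The methods give 72 h for both siRNA and R1881, and describe no depletion of the demethylases before R1881. Libraries with a single demethylase knocked down, or with dual knockdown and vehicle, were not analysed here. A rise under dual knockdown that depends on R1881 and one that does not therefore cannot be told apart. Each line is a single culture lineage, so differences between the lines cannot be told apart from differences between cultures. The labels do not say whether the 3 libraries of a group were separate cultures, and p-values then measure the spread between those libraries, which may be technical.

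Androgen is best known for switching genes on, but it also lowers the transcription of a set of genes, among them genes of androgen synthesis. KDM1A (LSD1), which removes methyl groups from lysines of histone H3, has been described as taking part in that repression, with AKR1C3, HSD17B6 and OPRK1 among the genes named as its targets. KDM7A removes repressive methyl marks from histone H3 and has been studied in the androgen response. A gene released from repression would stand above its R1881 level, towards its vehicle level, once the repressor is gone.

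Total counts per library ranged from 3182604 in C4-2 vehicle replicate 3 to 20154243, with a median of 18117641. The 3 C4-2 vehicle libraries carry LNCaP in their cell line field and C4-2 in their titles. Of 1036 genes that differed by a log2FC of 3 or more between the R1881 groups of the lines, 86.3 to 91.2% lay on the C4-2 side in those libraries and 12.4 to 14.1% in the LNCaP vehicle libraries. All 6 luminal prostate markers were expressed in every group, at a summed 1841 to 10176 CPM (counts scaled to a common library size) per library. Of markers of other cells, 1 of 3 basal, 1 of 4 neuroendocrine, 2 of 4 fibroblast and 2 of 3 leukocyte genes reached 1 CPM in a group. Basal KRT14 was highest in LNCaP under dual knockdown (1.27 CPM), with KRT5 and TP63 below 0.1 CPM in every group. Leukocyte PTPRC had 2.44 CPM in C4-2 with vehicle and LYZ 1.46 CPM in C4-2 under dual knockdown, with CD3E below 0.1 CPM. Fibroblast COL1A1 had group means of 8.65 to 32.5 CPM, while those of COL1A2 and DCN stayed below 0.2 CPM. The part of these genes in the results was not tested. Dual knockdown lowered KDM1A from 108 to 51.6 CPM in LNCaP and from 142 to 16.4 CPM in C4-2 (group means, n = 3 each). The KDM1A response in C4-2 minus that in LNCaP was −2.04 on the log2 scale (SE 0.12, edgeR adjusted p = 2.36e-09). KDM7A went from 59.7 to 30.9 CPM in LNCaP and from 121 to 21.2 CPM in C4-2. The classical induced gene KLK3, which encodes prostate-specific antigen, went from 345 to 4537 CPM with R1881 in LNCaP and from 21.6 to 397 CPM in C4-2. TMPRSS2 (68.0 to 1206 CPM and 71.2 to 621 CPM) and FKBP5 (101 to 1933 CPM and 108 to 1036 CPM) were also higher with R1881 in LNCaP and C4-2. Under dual knockdown FKBP5 fell in LNCaP (1555 CPM, edgeR adjusted p = 0.00336) and in C4-2 (832 CPM, edgeR adjusted p = 0.0053). KLK3 rose in LNCaP (5400 CPM, edgeR adjusted p = 0.00965) and was not called in C4-2 (329 CPM, edgeR adjusted p = 0.0599). TMPRSS2 was not called in either line. The extent of knockdown and the cell line move together here, and their parts in any difference between the lines cannot be told apart.

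The promoters of the genes ranged from CG-poor to CG-rich. RefSeq start sites on GRCh38.p14 were found for 5 of the 8 genes, with 2 starts each for AKR1C3 and DDC, and each window ran from 250 bases before to 50 bases after the start. The 3 windows shown belong to BCHE, DDC and PCDH19, the first of which fell and the others of which rose under dual knockdown in C4-2. They are written 5′ to 3′ on the gene's strand, with each CG dinucleotide, the site of DNA methylation, in capitals.
BCHE, chr3:165837374-165837673, minus strand: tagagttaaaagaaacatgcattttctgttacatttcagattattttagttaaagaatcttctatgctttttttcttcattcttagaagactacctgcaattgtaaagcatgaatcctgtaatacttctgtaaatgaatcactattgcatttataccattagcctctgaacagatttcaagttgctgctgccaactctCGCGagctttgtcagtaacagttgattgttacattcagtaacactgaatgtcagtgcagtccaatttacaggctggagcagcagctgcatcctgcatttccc
DDC, chr7:50565356-50565655, minus strand: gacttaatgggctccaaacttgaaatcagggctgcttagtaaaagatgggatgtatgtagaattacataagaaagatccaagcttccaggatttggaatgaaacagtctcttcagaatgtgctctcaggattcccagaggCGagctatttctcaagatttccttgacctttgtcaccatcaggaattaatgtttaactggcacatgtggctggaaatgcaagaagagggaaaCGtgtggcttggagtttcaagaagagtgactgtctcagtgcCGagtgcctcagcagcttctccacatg
PCDH19, chrX:100410224-100410523, minus strand: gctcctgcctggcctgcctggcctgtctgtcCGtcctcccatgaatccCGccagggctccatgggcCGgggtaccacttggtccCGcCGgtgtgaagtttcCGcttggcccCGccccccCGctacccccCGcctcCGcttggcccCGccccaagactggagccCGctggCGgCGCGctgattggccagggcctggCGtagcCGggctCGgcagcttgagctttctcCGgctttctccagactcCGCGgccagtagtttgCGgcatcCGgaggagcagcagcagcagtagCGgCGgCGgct

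BCHE had 36.7% G and C with 2 CG dinucleotides, and DDC had 44.3% with 3 at the start shown and 57.3% with 3 at its other start. PCDH19 had 71% with 26 CG dinucleotides. Against a median of 58.7% and 14 over 35116 RefSeq promoters, BCHE and DDC lay below in both and PCDH19 above. The windows of AKR1C3 held no CG dinucleotide, and that of CD200 held 15. The letters AGAACA, the core of the androgen response element, were searched for on both strands. They were in none of the 7 windows of these genes and in 14.8% of all promoters. The absence says only that these letters are not in the window. OPRK1, HSD17B6 and CAMK2N1 had no sequence to show.

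Levels are given as CPM, with TMM normalisation across all libraries, for replicates 1, 2 and 3. The log2FC and its SE came from edgeR's quasi-likelihood fit, and a gene was said to rise or fall only with an adjusted p under 0.05 over all genes tested. With 3 libraries against 3, an exact permutation test of a single gene cannot give a p below 0.1. The siScr R1881 libraries, against which dual knockdown was tested, also entered the contrast that chose the genes. For a gene chosen on low values in those libraries, this favours a rise under dual knockdown. The dual knockdown libraries did not. In bulk RNA, fewer cells that express a gene and less RNA of it per cell cannot be told apart.

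Across the group, dual knockdown raised 0 and lowered 1 of the 6 genes tested in LNCaP, where 8.27% of all genes rose and 5.89% fell. In C4-2 it raised 4 of 6, which were HSD17B6, CAMK2N1, PCDH19 and DDC, and lowered 1, BCHE. There 12.7% of all genes rose and 10.8% fell. HSD17B6 had not been lowered by R1881 in C4-2 (log2FC 0.22, SE 0.25). Of the genes that R1881 had lowered there, CAMK2N1, PCDH19 and DDC rose, BCHE fell and CD200 was not called. When the change also had to reach a log2FC of 1 or more, up or down, HSD17B6 and PCDH19 remained in C4-2, where 3.94% of all genes met both criteria, and no gene remained in LNCaP, where 0.286% did. The median log2FC of the 6 tested genes was −0.28 in LNCaP and 0.82 in C4-2, beside 0.00 and 0.01 over all genes. Both medians include genes on few counts. These were OPRK1 (11 against 14 counts) and CD200 (1 against 3) in LNCaP, and CD200 (11 against 4) in C4-2. They also include HSD17B6, which R1881 had not lowered. In LNCaP, DDC was the gene that fell, and no other gene of the group reached an unadjusted p under 0.05. The response differed between the lines for 2 of the 7 genes tested, DDC and CAMK2N1, where 10.9% of all genes differed. The genes that R1881 had lowered and dual knockdown raised in C4-2 stayed below their vehicle levels, as the plot of levels by library shows.

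**Figure D1:**
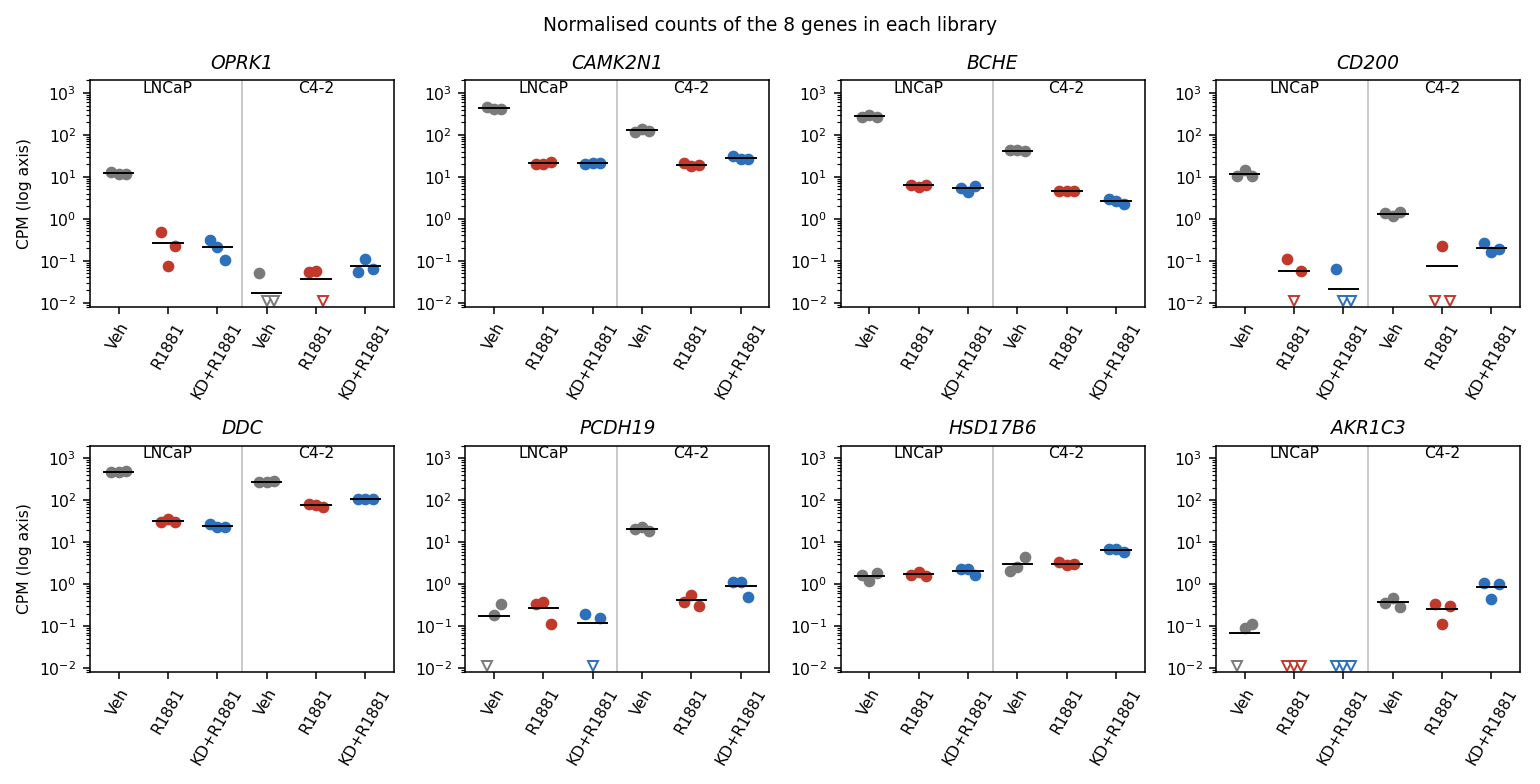
Normalised counts (CPM, log axis) of the 8 genes in each library, by line and group: siScr with vehicle (Veh, grey), siScr with R1881 (red) and dual knockdown with R1881 (KD+R1881, blue). Filled points are libraries, black lines are group means, and open triangles mark libraries with 0 counts, placed at the bottom of the axis. In LNCaP the blue points of DDC, BCHE and CAMK2N1 overlap with the red ones or lie below them, whereas in C4-2 those of DDC and CAMK2N1 lie above the red and well below the grey points.

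AKR1C3 and HSD17B6 encode steroid dehydrogenases, the first making testosterone from androstenedione and the second handling androstane derivatives on the way to and from dihydrotestosterone. AKR1C3 (chromosome 10, 5035354 to 5107686, GRCh38) had few reads. In LNCaP it had 0, 2 and 2 counts with vehicle and 0 counts in all 6 other libraries, so repression could not be examined there. In C4-2 it had 7, 8 and 1 counts with vehicle, 6, 2 and 5 with R1881, and 20, 8 and 16 under dual knockdown. Scaled by library size, the last gave 1.07, 0.439 and 0.997 CPM against 0.330, 0.112 and 0.306 CPM with R1881, and the libraries did not overlap. The ratio was 3.34 (95% exact counting interval 1.77 to 6.77, 44 against 13 counts). The gene did not pass the filter on low counts. Without the filter its log2FC was 1.71 (SE 0.59, edgeR adjusted p = 0.0426). Vehicle libraries of C4-2 overlapped with both other groups. AKR1C3 shares exonic bases with the close paralogue AKR1C1, which had 117 counts over all libraries against 77 for AKR1C3, so the assignment of its reads is uncertain.

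HSD17B6 (chromosome 12, 56752161 to 56787790) was no lower with R1881 in either line (log2FC 0.13, SE 0.28, in LNCaP and 0.22, SE 0.25, in C4-2), which goes against its description as androgen-repressed. LNCaP had 1.66, 1.16 and 1.87 CPM with vehicle, 1.64, 1.98 and 1.55 CPM with R1881, and 2.34, 2.30 and 1.65 CPM under dual knockdown. All 3 groups overlapped, and dual knockdown gave a log2FC of 0.31 (SE 0.27, edgeR adjusted p = 0.491). C4-2 had 2.02, 2.52 and 4.37 CPM with vehicle and 3.35, 2.81 and 3.00 CPM with R1881, the highest vehicle value being that of the smallest library. Under dual knockdown it reached 6.95, 7.08 and 5.98 CPM, above every library of the other groups. The gene rose by a log2FC of 1.12 (SE 0.22, edgeR adjusted p = 0.00198), the largest value among the genes called, and stood above its vehicle level. The difference between the lines in this response, 0.84 on the log2 scale (SE 0.33), did not pass the test (edgeR adjusted p = 0.117). HSD17B6 shares exonic bases with PRIM1, a DNA primase subunit on the opposite strand, and the counting did not use strand. PRIM1 itself rose in C4-2 from 25.4 to 33.6 CPM (log2FC 0.40, SE 0.12, edgeR adjusted p = 0.0322), and its part in the HSD17B6 counts was not tested.

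OPRK1, the kappa opioid receptor gene on chromosome 8, was well expressed only in LNCaP with vehicle. Its vehicle libraries had 12.8, 11.6 and 11.9 CPM. With R1881 they had 0.492, 0.0732 and 0.230 CPM, and under dual knockdown 0.317, 0.214 and 0.107 CPM. R1881 thus took OPRK1 to 2.38% of its vehicle level (log2FC −5.40, SE 0.31), and under dual knockdown it stood at 1.73% (log2FC −0.42 against siScr with R1881, SE 0.55, edgeR adjusted p = 0.679). The knockdown value rested on 11 against 14 counts and changed sign to 0.38 without LNCaP siScr R1881 replicate 1. In C4-2 the gene had 1, 2 and 4 counts in the vehicle, R1881 and knockdown groups. The ratio of LNCaP to C4-2 with vehicle was 480 (95% exact counting interval 85.8 to 18988, 611 against 1 counts). A release from repression could not be looked for in C4-2, since little OPRK1 was present even without androgen.

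DDC (chromosome 7, 50458436 to 50565457), the aromatic L-amino acid decarboxylase that makes dopamine and serotonin, had the smallest adjusted p of the group for a difference between the lines in the response to dual knockdown. In LNCaP it had 483, 477 and 494 CPM with vehicle, 30.9, 34.9 and 29.8 CPM with R1881, and 27.4, 23.2 and 23.4 CPM under dual knockdown. The corresponding C4-2 libraries had 274, 269 and 280 CPM, 80.4, 76.2 and 70.9 CPM, and 105, 105 and 108 CPM. No group overlapped with another in either line, and dual knockdown moved DDC further from vehicle in LNCaP and nearer to it in C4-2. In LNCaP DDC fell by 0.35 on the log2 scale (SE 0.08, edgeR adjusted p = 0.0104). In C4-2 it rose by 0.47 (SE 0.07, edgeR adjusted p = 0.000343). The difference between those responses was 0.85 (SE 0.10, edgeR adjusted p = 1.81e-05) and passed the test in each of the 18 fits that left out 1 library. The fall in LNCaP lost its call without siScr R1881 replicate 2 or dual knockdown replicate 2, and adjusted p ranged from 0.00619 to 0.0643 over the 9 such fits of that line. R1881 had lowered DDC by a log2FC of −3.95 (SE 0.08) in LNCaP and −1.86 (SE 0.07) in C4-2.

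CAMK2N1 (chromosome 1, 20482391 to 20486220) encodes an inhibitor of the calcium/calmodulin-dependent kinase CaMKII. LNCaP libraries had 463, 407 and 408 CPM with vehicle, 20.6, 20.5 and 22.5 CPM with R1881, and 19.9, 20.9 and 21.8 CPM under dual knockdown. Those of C4-2 had 119, 140 and 121 CPM, 21.3, 18.2 and 18.7 CPM, and 31.7, 26.5 and 26.6 CPM. With R1881 the libraries of the lines overlapped, although they started from different vehicle levels. The knockdown libraries lay above those with R1881 in C4-2 and overlapped with them in LNCaP. The log2FC under dual knockdown was −0.01 (SE 0.08, edgeR adjusted p = 0.976) in LNCaP and 0.54 (SE 0.10, edgeR adjusted p = 0.00161) in C4-2, where CAMK2N1 rose. These responses differed by 0.57 (SE 0.13, edgeR adjusted p = 0.00821). R1881 had given a log2FC of −4.34 (SE 0.08) in LNCaP and −2.72 (SE 0.10) in C4-2.

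BCHE (chromosome 3, 165772904 to 165837472), which encodes the choline ester hydrolase butyrylcholinesterase, moved the other way. In LNCaP it had 265, 303 and 260 CPM with vehicle, 6.29, 5.86 and 6.55 CPM with R1881, and 5.51, 4.38 and 6.08 CPM under dual knockdown. In C4-2 it had 43.6, 42.7 and 40.8 CPM, 4.56, 4.55 and 4.71 CPM, and 2.94, 2.63 and 2.31 CPM. The knockdown libraries of C4-2 lay below all those with R1881 alone, while in LNCaP these groups overlapped. BCHE fell by 0.81 on the log2 scale in C4-2 (SE 0.13, edgeR adjusted p = 0.00057) and to 6.15% of its vehicle level, from 10.7% with R1881 alone. The LNCaP value was −0.22 (SE 0.13, edgeR adjusted p = 0.307). The difference between the lines, −0.57 (SE 0.18), fell just short of the threshold (edgeR adjusted p = 0.0518) and passed it in some alternative fits. The R1881 response itself was a log2FC of −5.48 (SE 0.10) in LNCaP and −3.21 (SE 0.11) in C4-2.

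CD200 and PCDH19 are cell surface genes. CD200 (chromosome 3, 112332347 to 112362812) encodes a ligand that restrains myeloid cells through its receptor CD200R1. It had 10.2, 14.4 and 10.3 CPM in the LNCaP vehicle libraries and 1.35, 1.15 and 1.46 CPM in those of C4-2. With R1881 it was nearly lost, at 2, 0 and 1 counts in LNCaP and 0, 4 and 0 counts in C4-2 (log2FC −7.45, SE 0.39, and −3.94, SE 0.69). Dual knockdown left 1, 0 and 0 counts in LNCaP and 5, 3 and 3 counts in C4-2. The ratio of knockdown to siScr with R1881 in C4-2 was 2.72 (95% exact counting interval 0.805 to 11.7, 11 against 4 counts). Neither line passed the test (edgeR adjusted p = 0.504 in LNCaP and 0.295 in C4-2), and at this depth a change of a few fold was not detectable. In C4-2 the outcome turned on 1 library, since leaving out siScr R1881 replicate 2, which held all 4 counts, gave an adjusted p of 0.0224, in a range of 0.0224 to 0.589 over the 9 such fits.

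PCDH19 (chromosome X, 100291644 to 100410273) encodes a delta protocadherin, a calcium-dependent adhesion molecule known from the nervous system. LNCaP had 0 to 6 counts in every library, with no drop on R1881 (10 counts with vehicle and 13 with R1881 over the groups). C4-2 had 20.2, 22.5 and 18.9 CPM with vehicle, 0.385, 0.562 and 0.306 CPM with R1881, and 1.12, 1.10 and 0.499 CPM under dual knockdown. R1881 therefore took it to 2.00% of vehicle (log2FC −5.60, SE 0.26), the deepest drop of the group in C4-2. It rose under dual knockdown by a log2FC of 1.11 (SE 0.34, edgeR adjusted p = 0.0283), although knockdown replicate 3 lay within the range of the R1881 libraries. Its low R1881 values, the baseline of this test, may have helped to choose the gene, which favours a rise. That call was lost in 4 of the 9 fits that left out 1 library, each without siScr R1881 replicate 1 or 3 or dual knockdown replicate 1 or 2, with adjusted p from 0.00622 to 0.112. It was also lost when only the compared groups were fitted (adjusted p = 0.0766). The difference from LNCaP was 2.29 on the log2 scale (SE 0.86, edgeR adjusted p = 0.096).

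**Figure D2:**
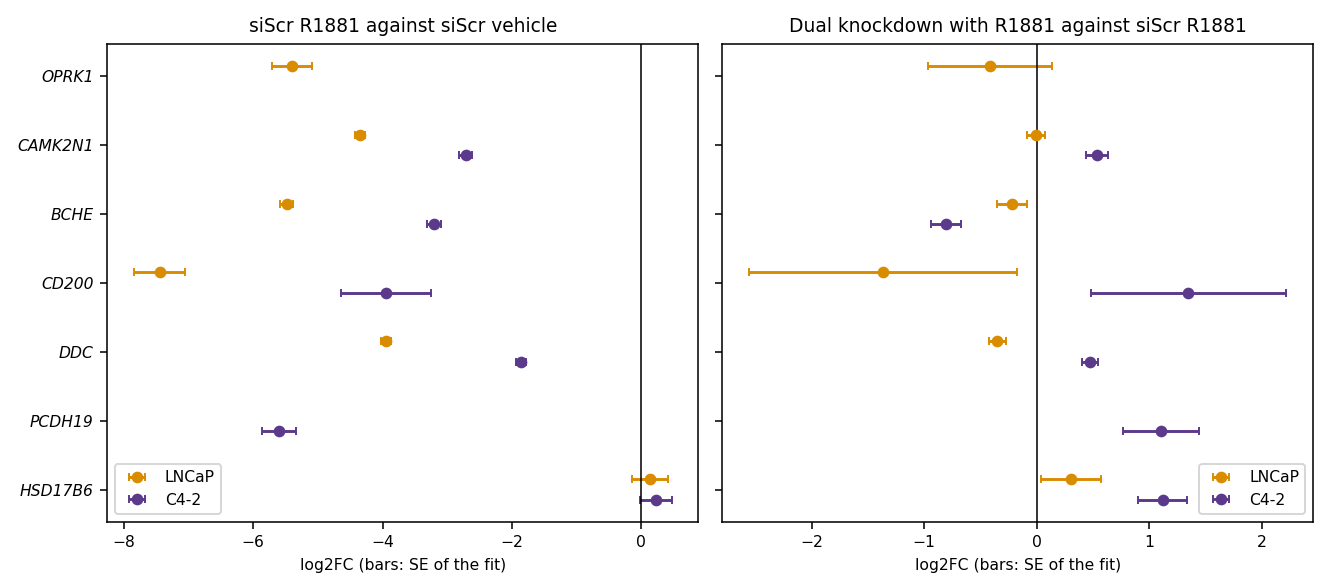
log2FC of each tested gene for R1881 against vehicle in siScr cells (left) and for dual knockdown against siScr, both with R1881 (right), in LNCaP (orange) and C4-2 (purple). Points are estimates and bars 1 SE of the edgeR fit. AKR1C3 in both lines, OPRK1 in C4-2 and PCDH19 in LNCaP were not tested and are not drawn. On the right, the C4-2 points of CAMK2N1, DDC, PCDH19 and HSD17B6 lie above 0 and that of BCHE lies below 0.

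For genes that R1881 had lowered, the rises in C4-2 were smaller than the R1881 drop, and whether they depended on R1881 was not tested. On the log2 scale the knockdown change was 19.7% of the R1881 drop for CAMK2N1, 19.8% for PCDH19 and 25.5% for DDC, and for BCHE it was −25.2%, an added drop. These shares are descriptions, since both changes use the same siScr R1881 libraries. In level, dual knockdown brought CAMK2N1 from 15.1 to 22.0% of its vehicle mean, PCDH19 from 2.00 to 4.39% and DDC from 27.9 to 38.8%. In LNCaP the corresponding changes ran from −0.13% for CAMK2N1 to −8.84% for DDC among the genes with more than a few counts, so neither these nor BCHE (−3.94%) moved towards vehicle.

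The lines differed in the levels from which these genes were lowered. Levels with vehicle and with R1881 alone are given without a test, since those libraries helped to choose the genes. With vehicle, C4-2 had less than LNCaP of 5 of the 7 genes fitted and more of 2, by direction alone. The median log2FC of all genes was −0.01. Of all genes, 29.5% were called lower and 29.4% higher, shares that require an adjusted p under 0.05 and so are not like the counts by direction. The lower genes were OPRK1 (log2FC −8.54, SE 0.53), CD200 (−3.19, SE 0.35), BCHE (−2.69, SE 0.09), CAMK2N1 (−1.74, SE 0.08) and DDC (−0.82, SE 0.07). PCDH19 was the exception among the genes lowered by R1881, with a log2FC of 6.68 (SE 0.42) and 847 against 10 counts. OPRK1 and PCDH19 passed the filter on low counts only through the vehicle group in which each was high, so each had to differ there. HSD17B6 gave 0.76 (SE 0.26), or 0.55 without C4-2 vehicle replicate 3, the smallest library.

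With R1881, DDC turned round and was higher in C4-2 by a log2FC of 1.25 (SE 0.07). HSD17B6 was higher by 0.83 (SE 0.24), close to its value with vehicle. The other genes lay nearer to each other in the lines than with vehicle, with a log2FC of −0.44 (SE 0.12) for BCHE, −0.13 (SE 0.10) for CAMK2N1, 0.30 (SE 1.02) for CD200, 0.65 (SE 0.57) for PCDH19 and −2.65 (SE 0.75) for OPRK1, the last on 2 against 14 counts. Of all genes, 28.6% were called higher and 29.7% lower in C4-2 with R1881. AKR1C3 had 13 counts in C4-2 and 0 in LNCaP, at least 4.09-fold higher against a floor of 3 counts over the group, with a lower 95% exact counting limit of 2.87.

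Under dual knockdown, C4-2 was higher for 5 of the 7 and lower for 1, beside 28.9% and 28.8% of all genes. The knockdown libraries had no part in choosing the genes. However, PCDH19, CD200 and OPRK1 passed the filter on low counts only through vehicle groups, for PCDH19 that of C4-2. The calls of PCDH19 and CD200 are therefore not independent of the choice of genes. Higher were DDC (log2FC 2.10, SE 0.07, edgeR adjusted p = 8.05e-16), HSD17B6 (1.67, SE 0.23, edgeR adjusted p = 1.96e-06), CAMK2N1 (0.44, SE 0.09, edgeR adjusted p = 0.000355), PCDH19 (2.94, SE 0.58, edgeR adjusted p = 0.000166) and CD200 (3.03, SE 1.01, edgeR adjusted p = 0.0139). CD200 rested on 11 against 1 counts and lost its call without LNCaP dual knockdown replicate 2 or 3 (adjusted p = 0.0578 and 0.058, highest 0.058 over 18 such fits). BCHE was lower by a log2FC of −1.01 (SE 0.14, edgeR adjusted p = 1.77e-06). AKR1C3 was at least 14.7-fold higher in C4-2 against the same floor, with 44 counts against 0 and a lower 95% exact counting limit of 11.5. CAMK2N1 and DDC thus stood lower in C4-2 than in LNCaP with vehicle and higher under dual knockdown. DDC was already higher in C4-2 with R1881 alone.

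**Figure D3:**
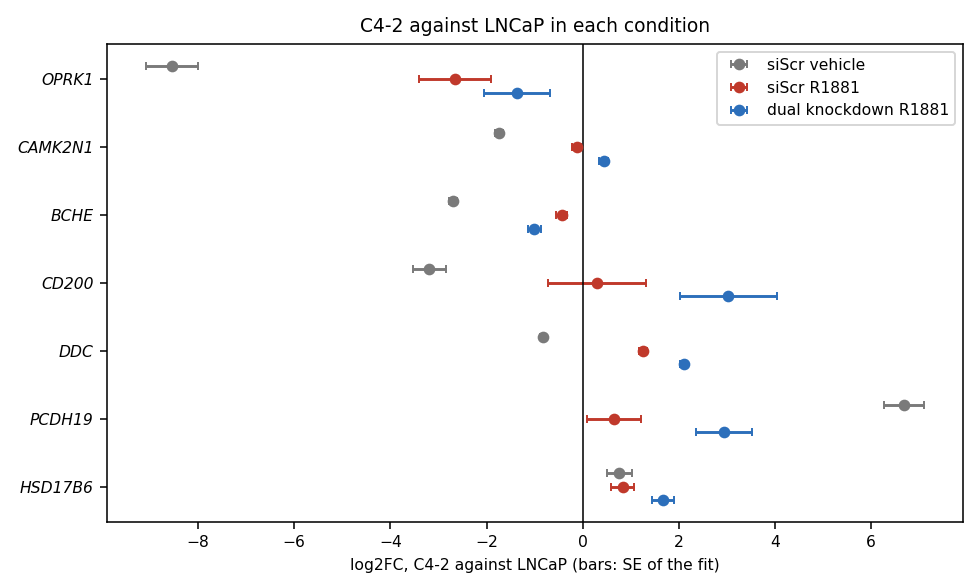
log2FC of C4-2 against LNCaP for the 7 tested genes within siScr vehicle (grey), siScr R1881 (red) and dual knockdown with R1881 (blue). Points are estimates and bars 1 SE of the edgeR fit across 18 libraries. DDC moves from −0.82 with vehicle to 1.25 and 2.10, while BCHE stays below 0 in all 3 conditions.

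Ordered by level, each of CAMK2N1, BCHE, CD200 and DDC was highest in LNCaP with vehicle and next in C4-2 with vehicle, without overlap between these groups or with the next. Below them, DDC kept its 4 R1881-treated groups apart, from C4-2 under dual knockdown (106 ± 1.58 CPM, SD, n = 3) to LNCaP under dual knockdown (24.7 ± 2.39 CPM, SD, n = 3). For CAMK2N1, the groups of LNCaP with R1881, LNCaP under dual knockdown and C4-2 with R1881 overlapped with their neighbours. Per kilobase of exon, CAMK2N1 (163 CPM per kilobase) and DDC (155 CPM per kilobase) had the highest levels of the group in LNCaP with vehicle, followed by BCHE at 89.5 CPM per kilobase, and HSD17B6 had 0.688.

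The 4 genes lowered in both lines, CAMK2N1, BCHE, CD200 and DDC, had pairwise Pearson's r of log2 CPM between 0.80 and 0.97 over 18 libraries, which follows from the way they were chosen. PCDH19 had r from 0.08 to 0.39 with them, and HSD17B6 from −0.54 to 0.02. Among 14748 other genes, ST7 had the pattern most like DDC (r = 0.995), and its means of 62.7 and 80.2 CPM in C4-2 with R1881 and under dual knockdown followed 133 CPM with vehicle. ATP2B1 came next (r = 0.977). BARD1 (r = 0.984), the partner of BRCA1, and the chemokine receptor ACKR3 (r = 0.977) were nearest to BCHE. GUSBP1 (r = 0.977) and the sucrase-isomaltase gene SI (r = 0.974) were nearest to CAMK2N1, and SI (r = 0.953) and LRIG3 (r = 0.95) were nearest to CD200. TSPAN12 (r = 0.965) and the quinone reductase NQO1 (r = 0.943) were nearest to HSD17B6. NQO1 had 217 CPM in C4-2 with R1881 and 451 CPM under dual knockdown. NR2F1 (r = 0.933) and ZFP36L2 (r = 0.921) were nearest to PCDH19. PCDH11Y, a protocadherin gene with a near-identical copy on the X chromosome, and RNF19A were nearest to OPRK1 (r = 0.954 for each). CAVIN1 (r = 0.966) and SLC1A3 (r = 0.962) were nearest to AKR1C3. All of these r share libraries and, for PCDH19, OPRK1 and AKR1C3, groups at or near 0 counts.

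Other genes described as lowered by androgen were read in the same contrasts. Of 10 such genes 9 were tested, and R1881 lowered 5 in LNCaP and 7 in C4-2, beside 23.2% and 15.7% of all genes. Dual knockdown raised 5 of the 9 in C4-2 and lowered 1, with a median log2FC of 0.49, beside 12.7% and 10.8% of all genes. CLU, the chaperone clusterin, went from 18.9 to 39.6 CPM (log2FC 1.06, SE 0.10, edgeR adjusted p = 8.23e-06). It had 23.3 CPM with vehicle, so it ended above its vehicle mean. So did FOLH1, with 933 CPM with vehicle, 798 CPM with R1881 and 1128 CPM under dual knockdown. UGT2B15 and UGT2B17 glucuronidate androgens and are close copies of each other, so their reads may be assigned uncertainly. UGT2B15 went from 25.5 to 52.7 CPM (log2FC 1.04, SE 0.12, edgeR adjusted p = 3.74e-05). UGT2B17 went from 7.92 to 16.5 CPM (log2FC 1.05, SE 0.15, edgeR adjusted p = 0.000216). Both stayed below their vehicle means of 99.2 and 31.8 CPM. The receptor tyrosine kinase gene MET also rose and stayed below vehicle (5.43 CPM under dual knockdown, 16.5 CPM with vehicle). In LNCaP none of the 9 rose and 1 fell, beside 8.27% and 5.89% of all genes, with a median of −0.00. The responses of 5 of the 9 differed between the lines, beside 10.9% of all genes. UGT2B15 had the smallest adjusted p (0.89, SE 0.14, edgeR adjusted p = 0.000252), and MET the largest difference (1.35, SE 0.43, edgeR adjusted p = 0.0494). ACKR3, lowered about as far as BCHE in C4-2 (56.9 to 5.47 CPM with R1881), gave 5.73 CPM under dual knockdown (edgeR adjusted p = 0.79).

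Relatives of the 8 genes were read under dual knockdown beside the same shares of all genes, 12.7% higher and 10.8% lower in C4-2 and 8.27% and 5.89% in LNCaP. Among 17 tested steroid enzymes, 3 rose and 0 fell in C4-2. The smallest adjusted p was that of CYP11A1, the side chain cleavage enzyme that starts steroid synthesis, which went from 7.58 to 23.3 CPM (log2FC 1.61, SE 0.15, edgeR adjusted p = 8.78e-06). CYP11A1 also rose in LNCaP, from 3.77 to 6.94 CPM (log2FC 0.88, SE 0.23, edgeR adjusted p = 0.0203), where 3 enzymes rose and HSD17B12 fell. R1881 raised this gene in both lines, unlike AKR1C3 and HSD17B6. All 4 tested immune ligands related to CD200 changed in C4-2, where CD276, PVR and CD274 rose and CD47 fell, and in LNCaP CD276 rose. Among delta protocadherins PCDH7 fell in C4-2 (log2FC −1.11, SE 0.22, edgeR adjusted p = 0.00198), opposite to PCDH19. None of 4 CaMKII genes, 2 opioid genes or 5 monoamine and acetylcholine genes passed the test in C4-2. In LNCaP 1 of the 4 tested genes of the last list rose and MAOA fell.

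Because the 8 genes were chosen partly on libraries used again in the test, genes lowered in one line were also read in the other, where no library is shared. Of genes that R1881 lowered in LNCaP by a log2FC of −1 or beyond (6.62% of all tested), 904 were tested in C4-2. Dual knockdown there raised 15.6% and lowered 7.30% of them, beside 12.7 and 10.8% of all genes, with a median log2FC of 0.07. Of those lowered in C4-2 (4.78% of all tested), 656 were tested in LNCaP, where 5.34% rose and 4.27% fell, beside 8.27 and 5.89% of all genes, with a median of 0.09. The reading against all genes turned with the size required, since 12.8% of the 2491 tested genes lowered in C4-2 at any size rose in LNCaP. The excess of rises in C4-2 also depended on that size. Of the 3711 tested genes lowered in LNCaP at any size, 13.04% rose and 12.05% fell in C4-2, with a median log2FC of 0.004. These shares stood beside 12.7 and 10.8% of all genes. CAMK2N1, BCHE, CD200 and DDC were in both lists.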

How the data were processed

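Gene expression was measured by RNA Seq of polyadenylated RNA in 18 libraries of LNCaP and C4-2 cells, grouped by sample title into 6 groups of 3. The deposited values are raw counts, a whole number of read pairs for every Ensembl gene, which the authors obtained by aligning trimmed reads to GRCh38 with STAR and counting with featureCounts v1.5.0-p1 on Ensembl annotation 83. Counting used neither strand nor reads that map to several places, so overlapping genes and close copies are uncertain. The methods name DMSO as vehicle for RNA Seq and ethanol for R1881, and which applied was not settled.

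Counts were tested with edgeR 4.0.16 in R 4.3.3: TMM factors, filterByExpr (minimum count 10, minimum total 15), and 2-sided quasi-likelihood F-tests, with p-values adjusted by Benjamini-Hochberg over all genes tested. The 9 libraries of a line shared 1 fit of 3 groups, and the lines were compared in a fit of 18 libraries. After filtering, 17162 genes were tested in LNCaP, 16965 in C4-2 and 18684 in all libraries. For genes with few counts, ratios have 95% exact intervals that cover counting error only, and a group at 0 was set to a floor of 3 counts. Replicates differed by more than counting error, with chi-square per gene of 2.56 to 18.6. Scripts were tested on simulated data. Figures and tables used Python 3.11.15 with pandas 2.3.3, scipy 1.17.1 and matplotlib 3.10.9.

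The genes, the related lists and the tests were chosen with earlier results of these data known. Named were the 8 genes in every library, KDM1A, KDM7A, KLK3, TMPRSS2 and FKBP5, for each gene the 2 other genes with the highest r among genes of at least 1 CPM on average, and up to 3 called genes per list with the smallest adjusted p. ACKR3, MET, FOLH1, HSD17B12 and CD274, and PRIM1 and AKR1C1, which overlap the 8 genes, were named after their values were seen. Some genes of these lists count in the totals and are not reported here by name. Alternatives were RLE factors, DESeq2 1.42.0, leaving out each library in turn, the replicate number as a block, no filter or one at an average of 1 CPM, fits of the compared groups alone, correction for GC content, and other thresholds.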

Additional observations from a re-analysis of the deposited data

Results flagged for a closer look

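DDC and CAMK2N1 responded to dual knockdown differently in LNCaP and C4-2, by the test of that difference. For DDC the response in C4-2 minus that in LNCaP was 0.85 on the log2 scale (SE 0.10, edgeR adjusted p = 1.81e-05), with a fall in every knockdown library of LNCaP against every R1881 library and a rise in every one of C4-2. For CAMK2N1 it was 0.57 (SE 0.13, edgeR adjusted p = 0.00821), with overlapping libraries in LNCaP and higher knockdown libraries in C4-2. The extent of the knockdown of KDM1A differed between the lines in the same fits (−2.04 on the log2 scale, SE 0.12), and its part in these differences was not tested.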

How the results depend on the processing

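Among the alternative values of single genes with a test, 851 kept their direction and their side of the threshold, 13 lost and 10 gained a call, and 5 changed sign. The count of genes called under dual knockdown in LNCaP was 1, or 0 with a log2FC of at least 1, and lay between 0 and 1 when a library was left out. In C4-2 it was 5, or 2 with a log2FC of at least 1, and 4 to 6 when a library was left out. The sign changes all came from leaving out a library and from values that did not pass the test: OPRK1 (−0.78 to 0.38) and CAMK2N1 (−0.040 to 0.039) under dual knockdown in LNCaP, and CD200 between the lines with R1881 (−3.17 to 1.08). Those in which the sign changed gave 0.38 for OPRK1, 0.039 and 0.017 for CAMK2N1, and −0.13 and −3.17 for CD200. Of genes lowered by R1881 in C4-2 at any size, 12.8% rose under dual knockdown in LNCaP, beside 5.34% of those lowered by a log2FC of −1 or beyond and 8.27% of all genes. Of genes lowered in LNCaP at any size, 13.04% rose in C4-2, beside 15.6% of those lowered by a log2FC of −1 or beyond. The share of all genes there was 12.7%. The cause of this dependence on size was not tested. The difference between the lines passed the test for BCHE with an average of at least 1 CPM (adjusted p = 0.0409) and with the GC trend removed (0.0143), and for PCDH19 with DESeq2 (0.0373) and without the filter (0.0488). Same-numbered libraries of a line correlated at −0.13 to 0.25, so the numbers were not taken as pairs. With replicate number as a block, the counts of genes called were 1 in LNCaP, 5 in C4-2, 2 for the difference between the lines and 6 between the lines under dual knockdown. Depth limits AKR1C3, CD200 with R1881, OPRK1 in C4-2 and PCDH19 in LNCaP.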
